A study of Homo sapiens with 12 samples.

Results

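Levels of 8 genes that encode monocyte chemokines and myeloid growth factors were read from the RNA of MCF10A, a human mammary epithelial cell line that is immortalized but does not form tumours. The genes, taken by symbol from a table of 60675, were the chemokines CCL2, CCL5, CCL20, CCL28 and CX3CL1 and the colony-stimulating factors CSF1, CSF2 and CSF3. The 12 libraries formed 6 groups of 2 biological replicates: cells labelled IL1R1-KO, IL1RAP-KO cells and WT cells that had received a single dose of 20 Gy of ionizing radiation (RT), and the same 3 genotypes left untreated. The KO cells were puromycin-selected Cas9 pools, not clones, and all cells grew in the same kind of medium with epidermal growth factor, cholera toxin, insulin, hydrocortisone and horse serum. The guide RNA behind each KO library and the time between RT and RNA extraction were not found in the sources used here. Levels are given as scaled TPM, the deposited TPM (a gene's transcripts relative to all transcripts of its library) after division by a library factor that aligns the bulk of the genes. Calls of a higher or lower level needed a limma adjusted p under 0.05 (Benjamini-Hochberg over the 15303 genes tested) and a fold change over 2. Fold changes and their standard errors (SE) are on the log2(scaled TPM + 1) scale, which understates the change of genes with low levels.

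Chemokines are small secreted proteins that draw white blood cells along a gradient, and the colony-stimulating factors make myeloid cells divide, mature and survive. IL-1α and IL-1β bind the receptor chain IL1R1, which then pairs with IL1RAP, and the complex signals through NF-κB and MAP kinases to switch on inflammatory genes. Epithelial cells make several of these messengers but mostly lack the receptors for them. Secreted protein was not measured here, and in bulk RNA a change in the number of expressing cells and a change in RNA per cell cannot be told apart.

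Of the 8 genes, 6 passed the filter on low levels (1 TPM or more in 2 or more libraries) and were tested. RefSeq promoter sequences (GRCh38.p14) were matched for 3 of the 8, CCL20, CCL28 and CSF2, and not for CCL2, CCL5, CX3CL1, CSF1 and CSF3. The 250 bases before the start of CCL20 and of CCL28 (the first of its 2 entries) are shown because these 2 chemokines behaved differently in the libraries. They were picked after their levels were seen. Capitals mark a κB motif and a TATA box (TATAAA) where a search found them. The κB pattern was GGG, a purine, any base, A or T, 2 pyrimidines and CC. The CCL20 stretch is chr2:227813592-227813841 on the plus strand, and that of CCL28 is chr5:43412392-43412641 on the minus strand.
CCL20: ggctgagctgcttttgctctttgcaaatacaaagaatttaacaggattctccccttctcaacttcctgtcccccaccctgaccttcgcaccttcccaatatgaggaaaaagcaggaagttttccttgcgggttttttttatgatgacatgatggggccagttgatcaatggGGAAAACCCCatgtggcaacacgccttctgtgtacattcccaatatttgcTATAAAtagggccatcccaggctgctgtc
CCL28: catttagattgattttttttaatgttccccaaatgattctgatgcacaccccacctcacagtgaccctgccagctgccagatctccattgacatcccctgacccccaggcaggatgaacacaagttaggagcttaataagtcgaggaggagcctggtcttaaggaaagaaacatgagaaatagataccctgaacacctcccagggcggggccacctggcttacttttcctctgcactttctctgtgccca
The κB match in CCL20 was read on the opposite strand, 79 to 70 bases before the start, and the TATA box on the gene's strand, 29 to 24 bases before it. Neither CCL28 entry nor the CSF2 entry held a match to either pattern, and none of the 4 entries matched the AP-1 motif (TGANTCA, both strands). Sites that depart from these patterns were not searched for, so a missing match does not show that a promoter lacks such a site. The κB motif was present on either strand in 5.21%, the AP-1 motif in 6.57% and the TATA box in 6.8% of the 35116 windows of this length in the table. The motif matches were no test of binding, and a link between the motifs and the levels was not tested. The RefSeq start of CCL20 lies inside the longer gene that GENCODE v44 annotates.

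The libraries were those of basal mammary epithelium in RNA: all 10 markers of that list were above 1 TPM in some library, and they summed to 3860 to 4370 TPM with the IL1R1-KO RT label, 2650 to 3400 in IL1RAP-KO RT, 2330 to 2360 in WT RT and 4670 to 5640 in untreated libraries. After RT KRT5 and EPCAM were called lower and COL17A1 higher in all 3 genotypes. KRT14 differed by genotype, with RT responses of 0.54 with the IL1R1-KO label, -0.15 in IL1RAP-KO and -1.50 in WT (interactions 2.04 and 1.36, both called). KRT6A was called higher in cells labelled IL1R1-KO RT than in WT RT (1.09). Of 13 leukocyte markers, 2 (LAPTM5 and FCER1G) reached 1 TPM in any library, and NKG7, AIF1 and TYROBP were among those listed at 0 throughout. The summed leukocyte markers, nearly all LAPTM5, were 27.9 to 28.7 TPM in libraries labelled IL1R1-KO RT, 22.5 to 31 in IL1RAP-KO RT, 11.5 to 12.6 in WT RT and 77.4 to 90.9 in untreated libraries, so the list ran lowest where CCL2 and CSF3 ran highest, and its part in the results was not tested. Fibroblast markers, mostly DCN, summed to 47.6 to 51.9 TPM with the IL1R1-KO RT label, 39.5 to 55.6 in IL1RAP-KO RT, 61 to 78.4 in WT RT and 18.8 to 24.6 in untreated libraries, with COL1A2 listed at 0 in all. They were thus highest in WT RT libraries, like CCL2 and CSF3, and DCN was -0.79 with the IL1R1-KO label against WT RT (adjusted p = 0.0097, short of the fold threshold), and the part of this list was not tested either. Endothelial markers summed to 6.48 to 10 TPM in irradiated and 3.45 to 5.35 TPM in untreated libraries. Mitochondrial DNA transcripts took 36.9% to 57% of the TPM after RT and 18.3% to 21.1% without. IL1RAP-KO RT replicate 2 had the highest share, and IL1RAP-KO RT replicate 1 and both untreated libraries labelled IL1R1-KO correlated best with a library of another group. IL1RAP mRNA was lower in IL1RAP-KO than in WT cells (log2 fold change -1.84, SE 0.21, limma adjusted p = 0.013) and after RT missed the fold threshold (-0.87, adjusted p = 0.028). It was itself called lower after RT in WT cells (-1.09, limma adjusted p = 0.0026), against -0.11 in IL1RAP-KO cells (not called). IL1R1 mRNA was called higher in IL1RAP-KO RT than in WT RT cells (1.03, limma adjusted p = 0.0046). IL1R1 mRNA was not called lower in cells labelled IL1R1-KO, untreated (-0.10, SE 0.16, adjusted p = 1) or after RT (0.20, adjusted p = 0.47), so the RNA does not check that label. The paper checked it by other means. It reports that IL-1α or IL-1β led to loss of the NF-κB inhibitor IκBα in wild-type cells, which IL1R1-KO and IL1RAP-KO cells resisted. From this it concludes that both knockouts were made.

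**Figure D1:**
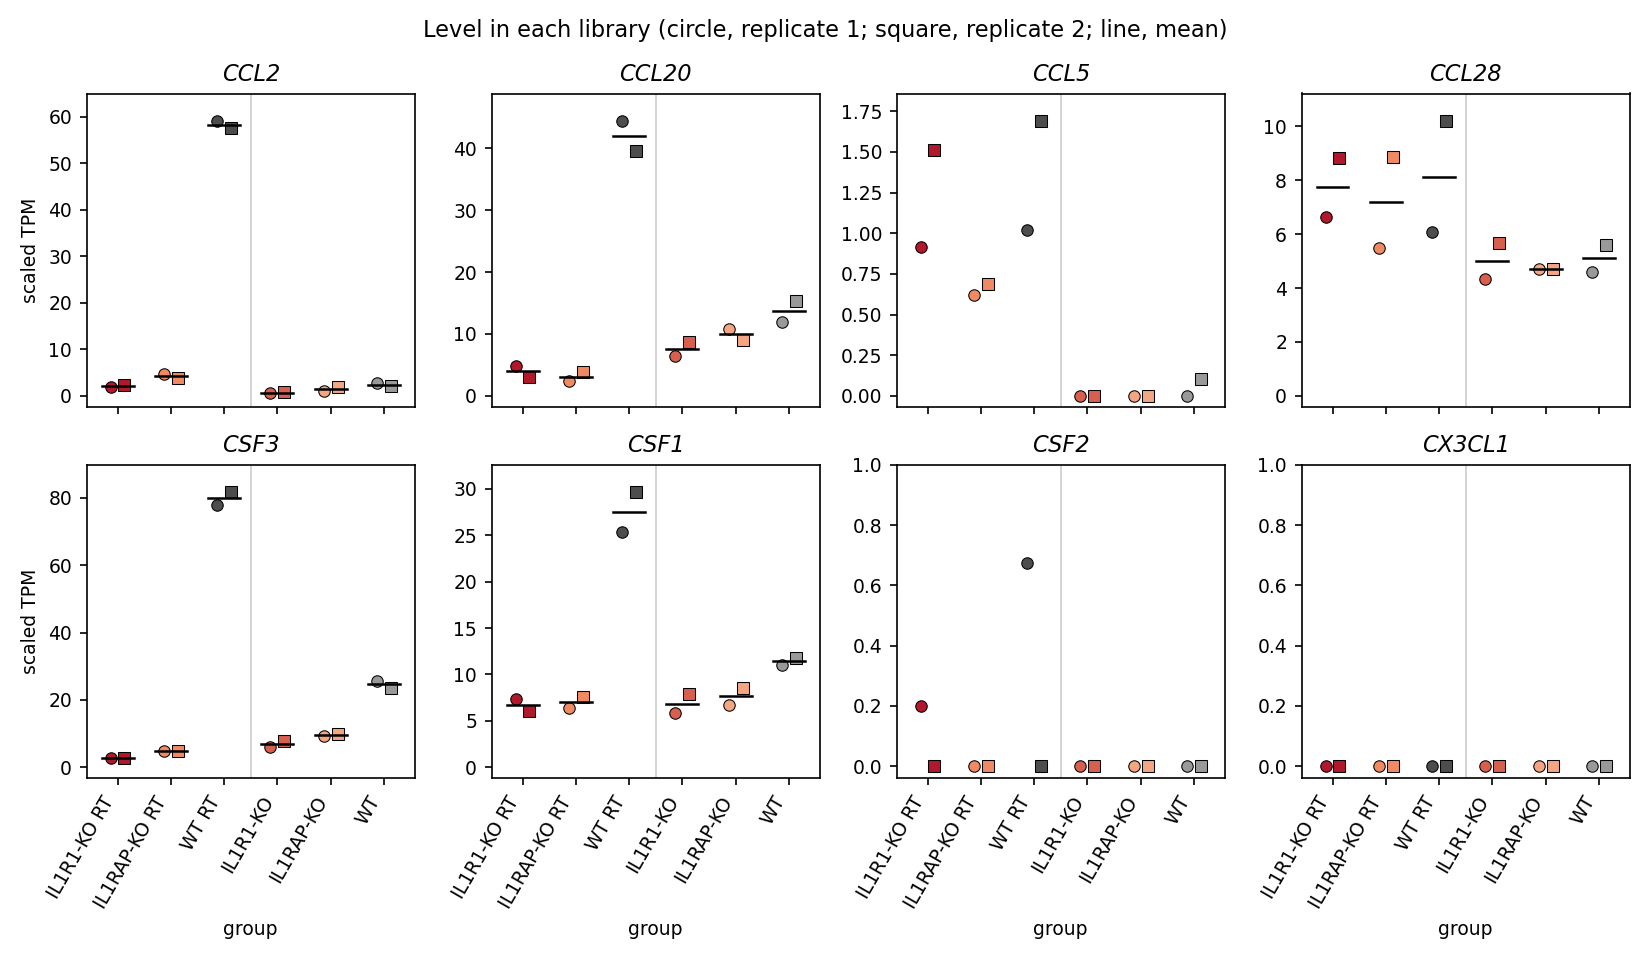
Level of each of the 8 genes (scaled TPM, vertical axis, a scale of its own per gene) in the 12 libraries by group, with group means as lines except for CCL5, CSF2 and CX3CL1. CCL2, CCL20, CSF3 and CSF1 were highest in both WT RT libraries, whereas CCL5 was above 0 in all 6 irradiated libraries and CX3CL1 was listed at 0 in all 12.

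Irradiated KO cells were first set against irradiated WT cells, to see how much of each messenger remained when an IL-1 receptor chain was targeted. CCL2, CCL20, CSF3 and CSF1 were called lower, with CCL2 and CSF3 at 3.38% to 7.34% of the WT RT mean, CCL20 at 7.42% to 9.43% and CSF1 at 24.4% to 25.5%. CCL5 and CCL28 were not called. Thus 4 of the 8 genes were called lower and 0 higher in cells labelled IL1R1-KO RT, against 1.9% and 1.18% of all genes tested, and the same counts held in IL1RAP-KO RT cells, against 2.06% and 0.83%. Without adjustment (limma p under 0.05), again 4 were lower and 0 higher in each. Both comparisons share the WT RT libraries.

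CCL2, the chemokine that brings monocytes into tissue through CCR2, was among the most reduced. The gene (ENSG00000108691) lies on chromosome 17 of GRCh38, from 34255274 to 34257208 on the plus strand. Its level was 1.89 and 2.3 scaled TPM in libraries labelled IL1R1-KO RT, 4.8 and 3.77 for IL1RAP-KO RT and 59.1 and 57.5 in WT RT. No KO library came near the WT RT pair. Its log2 fold change was -4.26 with the IL1R1-KO label (SE 0.20, limma adjusted p = 1.8e-06) and -3.49 for the IL1RAP-KO line (SE 0.20, adjusted p = 8.8e-06). Untreated, the level was 0.572 and 0.875 in libraries labelled IL1R1-KO, 1.12 and 1.83 for IL1RAP-KO and 2.77 and 2.02 in WT. Although the 2 KO groups lay below the WT libraries, neither difference was called (-0.97 with adjusted p = 0.2 and -0.46 with adjusted p = 1). By group mean, WT RT (58.3 ± 1.12, SD, n = 2) was followed by IL1RAP-KO RT (4.28 ± 0.73), then WT (2.39 ± 0.532) and IL1R1-KO RT (2.09 ± 0.287), whose libraries overlapped, then IL1RAP-KO (1.48 ± 0.503) and IL1R1-KO (0.723 ± 0.214).

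CSF3, which encodes granulocyte colony-stimulating factor, the main driver of neutrophil production, had the highest level of the 8 genes in WT RT cells. It lies on chromosome 17 from 40015361 to 40017813 on the plus strand (ENSG00000108342). The libraries labelled IL1R1-KO RT held 2.67 and 2.73 scaled TPM, the IL1RAP-KO RT libraries 4.89 and 4.8, and the WT RT libraries 78 and 81.6. The log2 fold changes were -4.45 (SE 0.13, adjusted p = 6e-08) and -3.79 (SE 0.13, adjusted p = 2.8e-07), and the 3 groups did not overlap. CSF3 alone of the 8 genes was also called lower without RT: untreated libraries labelled IL1R1-KO held 5.88 and 7.85, IL1RAP-KO 9.26 and 9.76, and WT 25.6 and 23.6 scaled TPM. Here the log2 fold changes were -1.71 (adjusted p = 0.00035) and -1.28 (adjusted p = 0.0042). The first was lost when the 4 libraries were fitted alone (adjusted p = 0.062), and the second without WT replicate 1, IL1RAP-KO replicate 1 or IL1RAP-KO replicate 2 (adjusted p = 0.1, 0.067 and 0.064). The 1 gene called lower and 0 called higher stand against 0.118% and 0.0196% of all genes for cells labelled IL1R1-KO and 0.098% and 0% for IL1RAP-KO cells, and without adjustment 4 and 3 of the 8 genes were lower and 0 were higher.

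CCL20 draws dendritic cells and lymphocytes that carry CCR6. The gene (ENSG00000115009, chromosome 2, 227805739 to 227817564, plus strand) is the one whose promoter window held the κB motif and the TATA box printed above. Its level was 4.78 and 3.13 scaled TPM in libraries labelled IL1R1-KO RT, 2.41 and 3.81 for IL1RAP-KO RT and 44.4 and 39.5 in WT RT. The 2 KO groups overlapped each other and lay far below WT RT, with log2 fold changes of -3.13 (SE 0.23, adjusted p = 3.1e-05) and -3.40 (SE 0.23, adjusted p = 2.6e-05). In untreated cells the levels were 6.42 and 8.69 with the IL1R1-KO label, 10.8 and 9.05 in IL1RAP-KO and 11.9 and 15.4 in WT. These differences were not called (-0.78 with adjusted p = 0.64 and -0.41 with adjusted p = 1). In both KO lines the irradiated libraries of CCL20 lay below the untreated ones.

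CSF1, macrophage colony-stimulating factor, keeps monocytes and macrophages alive through CSF1R. It lies on chromosome 1 from 109910242 to 109930992 on the plus strand (ENSG00000184371). Libraries labelled IL1R1-KO RT held 7.34 and 6.08 scaled TPM, IL1RAP-KO RT 6.41 and 7.59 and WT RT 25.3 and 29.6. The log2 fold changes were -1.88 (SE 0.17, adjusted p = 0.00014) and -1.83 (SE 0.17, adjusted p = 0.00021). Untreated, the values were 5.83 and 7.85 with the IL1R1-KO label, 6.71 and 8.57 in IL1RAP-KO and 11 and 11.8 in WT, and no difference was called (-0.67 with adjusted p = 0.49 and -0.53 with adjusted p = 0.94). The 4 KO groups, irradiated and untreated, overlapped with their neighbours in the order of levels, and each lay below both WT groups.

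CCL28, a chemokine of mucosal epithelia and of milk that acts through CCR10 and CCR3, showed none of this. The gene (ENSG00000151882, chromosome 5, 43376645 to 43412391, minus strand) held 6.64 and 8.84 scaled TPM in libraries labelled IL1R1-KO RT, 5.48 and 8.88 for IL1RAP-KO RT and 6.07 and 10.2 in WT RT. The log2 fold changes against WT RT were -0.03 (95% confidence interval -0.62 to 0.55, adjusted p = 0.96) and -0.15 (-0.74 to 0.43, adjusted p = 0.74), so a fold change over 2 in either direction lay outside both intervals. All 6 groups of CCL28 overlapped with their neighbours in the order of levels. In untreated libraries it stood at 4.34 and 5.67 with the IL1R1-KO label, 4.72 and 4.71 in IL1RAP-KO and 4.59 and 5.61 in WT.

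CCL5, which draws T cells and monocytes, was low. The gene (ENSG00000271503, chromosome 17, 35871491 to 35880793, minus strand) stood at 0.918 and 1.51 scaled TPM in libraries labelled IL1R1-KO RT, 0.622 and 0.686 for IL1RAP-KO RT and 1.02 and 1.69 in WT RT. It was listed at 0 in 5 of the 6 untreated libraries and at 0.104 scaled TPM in WT replicate 2. CCL5 therefore passed the filter through its irradiated libraries alone. Against WT RT it was not called in either KO line (-0.09 with adjusted p = 0.85 and -0.50 with adjusted p = 0.17). An annotated gene on the opposite strand, ENSG00000270240, overlaps CCL5 and was listed at up to 0.29 TPM in 3 irradiated libraries. Because the strand setting of the counting is not given in the sources used here, its reads and those of CCL5 may not have been told apart.

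CSF2, granulocyte-macrophage colony-stimulating factor (ENSG00000164400, chromosome 5, 132073789 to 132076170, plus strand), was above 0 in 2 libraries, IL1R1-KO RT replicate 1 with 0.22 TPM and WT RT replicate 1 with 0.58 TPM. CX3CL1, the membrane-tethered chemokine fractalkine (ENSG00000006210, chromosome 16, 57372477 to 57385044, plus strand), was listed at 0 in all 12. Neither could be tested, and as TPM keep no depth, no upper limit can be given.

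**Figure D2:**
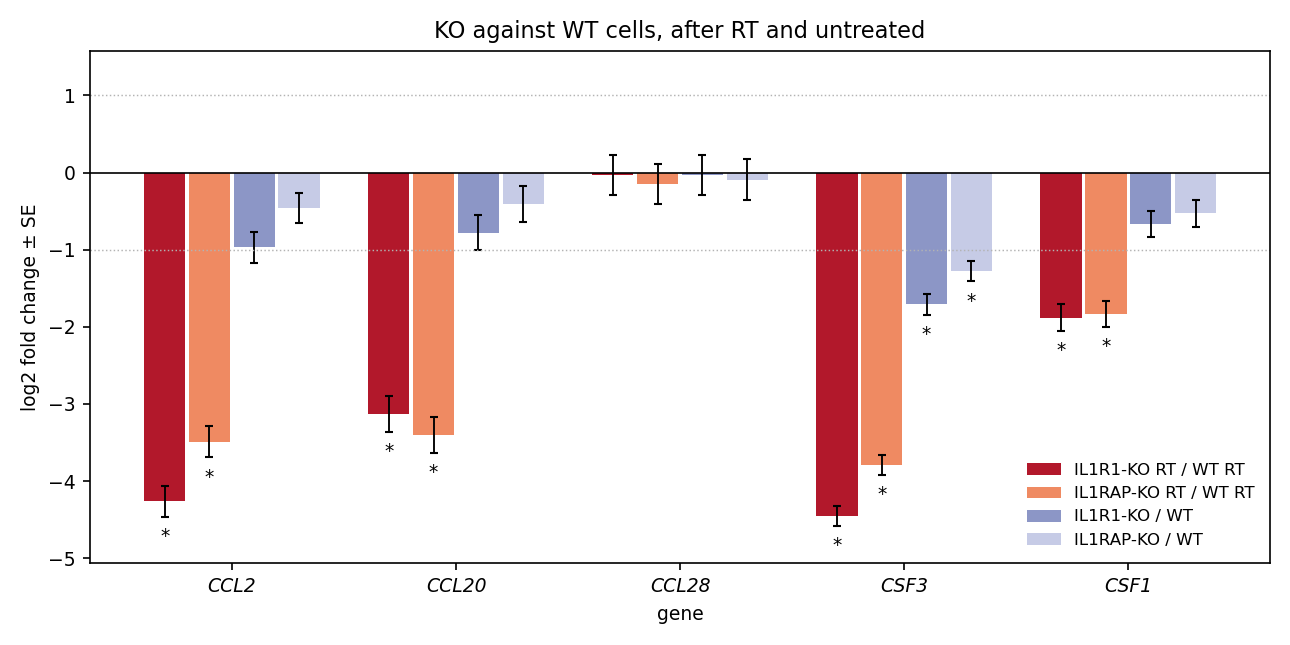
Log2 fold change of KO against WT cells (vertical axis, bars with SE as error bars) for the 5 genes above 0 in all libraries, after RT and untreated. Asterisks mark called differences and dotted lines a fold change of 2. CCL2, CCL20, CSF3 and CSF1 were called lower in both irradiated comparisons, CSF3 also in both untreated ones, and CCL28 in none.

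RT was then set against no treatment within each genotype, to see which messengers the radiation raised and whether the KO cells followed. In WT cells CCL2, CCL20, CSF3, CSF1 and CCL5 were called higher after RT. In KO cells the response of CCL2 was smaller, CSF1 stayed uncalled, and the mean levels of CCL20 and CSF3 lay below those of untreated KO cells. The counts were 5 of 8 genes higher and 0 lower in WT RT cells, where 7.04% of all genes were called higher and 6.17% lower. They were 1 higher (CCL5) and 1 lower (CSF3) in cells labelled IL1R1-KO, against 8.14% and 8.16%, and 1 higher (CCL2) and 1 lower (CCL20) in IL1RAP-KO cells, against 8.21% and 9.19%. Without adjustment, 5 were higher and 0 lower in WT RT cells, and 2 were higher and 2 lower in each KO line. CCL5 is counted although it passed the filter through irradiated libraries alone, so its RT calls are no support for a change.

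On the log2 scale CCL2 had the steepest rise among those of the 8 genes that were above 0 in all libraries. Its WT RT mean was 24.4 times the WT mean, with a log2 fold change of 4.14 (SE 0.20, adjusted p = 5.3e-07). In cells labelled IL1R1-KO the change was 0.85 (adjusted p = 0.0058, short of the fold threshold) and in IL1RAP-KO cells 1.10 (adjusted p = 0.0013). The ratio of means was 2.89 in both. The IL1RAP-KO call was lost with TPM as deposited (0.85) and when replicate 1 of the untreated (0.89) or of the irradiated pair (0.96) was left out, while the IL1R1-KO change was called when levels were scaled to nuclear protein-coding genes (1.13) or with a pseudocount of 0.1 (1.43).

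The log2 fold changes of CSF3 and CCL20 had opposite signs in KO and WT cells. In WT cells RT raised CSF3 3.24-fold (log2 1.66, SE 0.13, adjusted p = 9.3e-06) and CCL20 3.08-fold (log2 1.56, SE 0.23, adjusted p = 0.00046). In cells labelled IL1R1-KO, CSF3 fell to 39.3% of its untreated mean (log2 -1.08, adjusted p = 9.3e-05), a call lost without IL1R1-KO replicate 2 (-0.89) and with nuclear protein-coding scaling (-0.70), and CCL20 was at 52.2% (log2 -0.80, adjusted p = 0.016, not called, called at -1.03 when the irradiated replicate 1 was left out, and not called under nuclear protein-coding scaling, where it was -0.40 with adjusted p = 0.17). For the IL1RAP-KO line, CCL20 fell to 31.3% (log2 -1.43, adjusted p = 0.00061) and CSF3 was at 51% (log2 -0.85, adjusted p = 0.00044, not called, called at -1.14 with TPM as deposited, and not called under nuclear protein-coding scaling, where it was -0.50 with adjusted p = 0.011). Irradiated and untreated KO libraries did not overlap for either gene, except that under nuclear protein-coding scaling CCL20 was at 3.82 to 6 in irradiated and 5.69 to 7.8 in untreated libraries labelled IL1R1-KO. The share of mitochondrial DNA transcripts was higher after RT in every genotype, and with levels scaled to nuclear protein-coding genes no call of the 6 tested genes changed direction.

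CSF1 rose 2.41-fold in WT cells after RT (log2 1.19, SE 0.17, adjusted p = 0.00042), or 0.94 on the log2 scale with TPM as deposited, short of the threshold. In KO cells its changes were -0.02 (95% confidence interval -0.40 to 0.37) with the IL1R1-KO label and -0.11 (-0.49 to 0.28) in IL1RAP-KO. Both intervals exclude a fold change of 2. CCL28 ran alike in the 3 genotypes, at 0.54 and 0.48 in the KO lines and 0.55 in WT, none of them called (adjusted p = 0.12, 0.15 and 0.12). The RT test of CCL5 is no support for a change, since the gene passed the filter through irradiated libraries alone. CCL5 was called higher in cells labelled IL1R1-KO (adjusted p = 0.0025) and in WT cells (adjusted p = 0.0027). It was not called in IL1RAP-KO cells (adjusted p = 0.024, short of the fold threshold). No fold is given for CCL5, since all 4 untreated KO libraries were listed at 0. Its calls were lost without IL1R1-KO RT replicate 2 and without WT RT replicate 2, and with a pseudocount of 0.1 IL1RAP-KO was called as well (adjusted p = 0.0056).

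**Figure D3:**
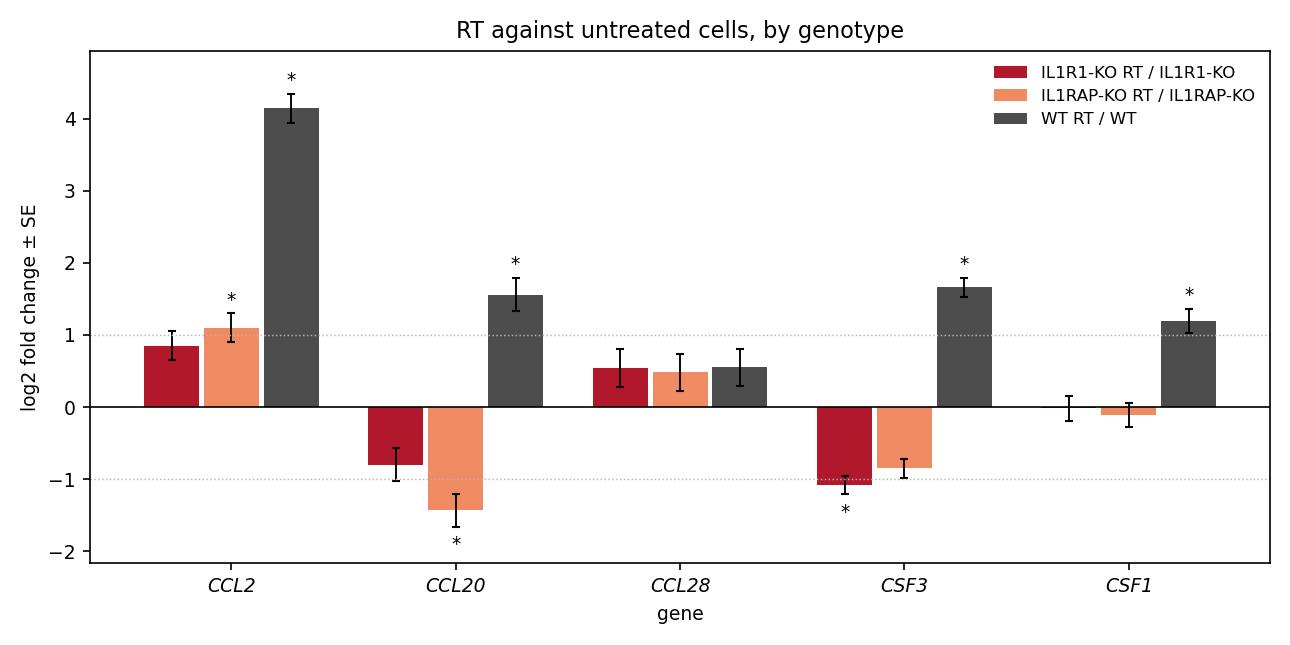
Log2 fold change of irradiated against untreated cells (vertical axis, bars with SE as error bars) in the 3 genotypes for 5 genes. Asterisks mark called differences and dotted lines a fold change of 2. In WT cells CCL2 rose by 4.14 and CSF3, CCL20 and CSF1 by 1.19 to 1.66, whereas CCL20 and CSF3 lay below 0 in both KO lines.

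The difference between the RT response of KO and of WT cells was tested directly as an interaction, with the same thresholds. CCL2, CCL20, CSF3 and CSF1 had a smaller or opposite response in both KO lines, and CCL28 and CCL5 were not called. That is 4 of 8 genes lower and 0 higher for cells labelled IL1R1-KO, against 0.928% and 0.516% of all genes, and likewise for IL1RAP-KO cells, against 0.66% and 0.157%, with the same counts (4 and 0) at an unadjusted limma p under 0.05. The values were -3.29 and -3.03 for CCL2 (SE 0.28, adjusted p = 0.00044 and 0.00098), -2.74 and -2.51 for CSF3 (SE 0.18, adjusted p = 0.00014 and 0.00026) and -2.36 and -2.99 for CCL20 (SE 0.32, adjusted p = 0.0057 and 0.0026), each with the IL1R1-KO label first. For CSF1 they were -1.21 and -1.30 (SE 0.24, adjusted p = 0.033 and 0.036). Of 17 alternatives the CSF1 calls held in 6 and 4, with adjusted p of up to 0.13 and 0.16. They held in 1 of 8 leave-one-out fits each, the one without the untreated replicate 1 labelled IL1R1-KO and the one without the irradiated IL1RAP-KO replicate 1. For CCL28 the interactions were -0.01 (95% confidence interval -0.84 to 0.82) and -0.06 (-0.89 to 0.77).

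The 2 KO lines were also compared with each other after RT. None of the 8 genes was called in either direction, against 0.0131% of all genes higher and 0.0588% lower. Without adjustment, 2 genes were lower and 0 higher with the IL1R1-KO label by limma. These were CCL2 (-0.77, 95% confidence interval -1.21 to -0.33, adjusted p = 0.18) and CSF3 (-0.66, -0.95 to -0.37, adjusted p = 0.12), for which the libraries of the 2 lines did not overlap. The intervals for CCL20 (0.27, -0.24 to 0.78) and CSF1 (-0.05, -0.44 to 0.33) included 0.

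The summed level of CCL2, CCL20, CSF3 and CSF1 showed how the mixture shifted. The sum was 16.7 and 14.2 scaled TPM in libraries labelled IL1R1-KO RT, 18.5 and 20 for IL1RAP-KO RT and 207 and 208 in WT RT, and 18.7 and 25.3, 27.9 and 29.2, and 51.3 and 52.8 in untreated IL1R1-KO, IL1RAP-KO and WT libraries. CCL2 made up 28.6% and 27.6% of the sum in WT RT libraries, against 5.4% and 3.82% in WT libraries. In irradiated KO libraries CSF1 had the highest share of the 4 genes, 44% and 42.7% with the IL1R1-KO label and 34.6% and 38% in IL1RAP-KO RT, against 12.2% and 14.2% in WT RT, where CSF3 led with 37.7% and 39.2%. These sums are descriptions of levels per transcript length and carry no test.

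**Figure D4:**
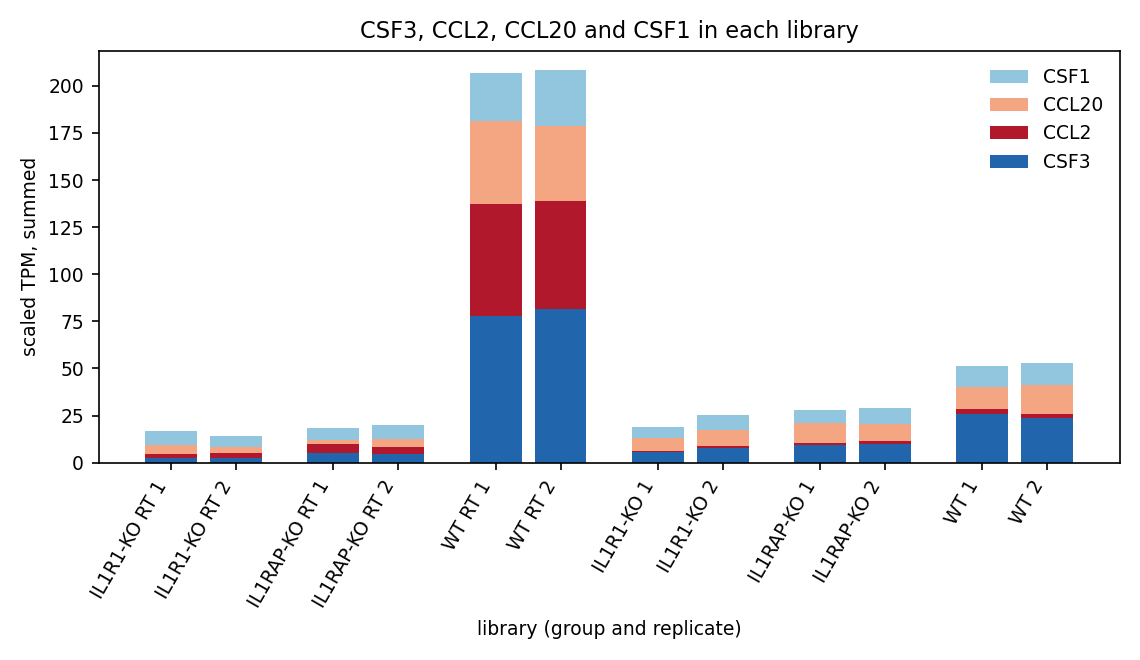
Stacked scaled TPM of CSF3, CCL2, CCL20 and CSF1 (vertical axis) in each of the 12 libraries. The WT RT libraries reached 207 and 208, the irradiated KO libraries 14.2 to 20.

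**Figure D5:**
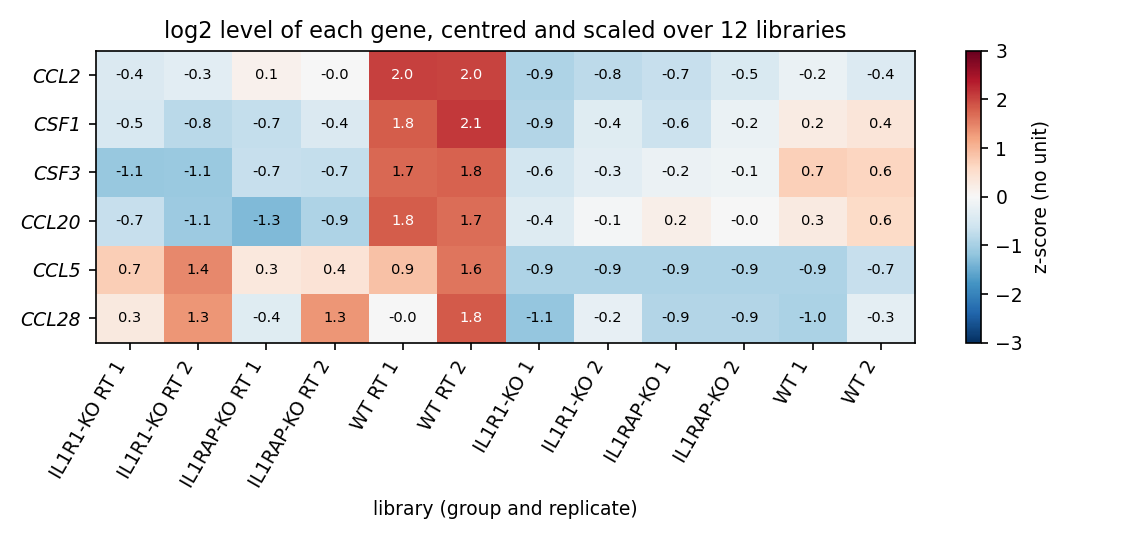
Z-scores of the log2 level of the 6 tested genes (colour and printed number, no unit) in the 12 libraries (columns). CCL2, CSF1, CSF3 and CCL20 peaked in the WT RT pair, CCL5 and CCL28 in irradiated libraries of several genotypes.

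Profiles over the 12 libraries were compared by the root mean square difference of z-scores, a descriptive measure in which 0 means the same shape. CSF3 and CCL20 were the closest pair of the 6 genes (0.3), followed by CSF3 and CSF1 (0.336), and the farthest were CCL20 and CCL28 (1.32). CCL2 lay nearer to CSF1 (0.434) than to CCL20 (0.75). Among all genes tested, those nearest to CCL2 were LTF, the antimicrobial iron-binding lactotransferrin (0.132), CXCL8, the neutrophil chemokine interleukin-8 (0.164), and the integrin gene ITGB8 (0.167). Nearest to CSF3 were SH3RF2 (0.144), the zinc transporter gene SLC39A8 (0.205) and ANKRD22 (0.212). SLC39A8 (0.211), ANKRD22 (0.249) and SNCAIP (0.263) were nearest to CSF1, and LRG1 (0.274), TPCN1 (0.287) and CSF3 itself to CCL20. CXCL8, for one, stood at 10 and 8.62 scaled TPM in libraries labelled IL1R1-KO RT, 17 and 16.1 for IL1RAP-KO RT and 276 and 275 in WT RT.

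The receptors for the 8 proteins were low in RNA, with the highest mean level for CSF1R. Of 13 receptor genes, 2 could be tested, and CCR6 and CSF2RA were among those listed at 0 in all libraries. CSF1R, the CSF1 receptor, averaged 2.02 scaled TPM over the libraries with a highest value of 3.82, and was called in no comparison (its lowest adjusted p was 0.043, at 0.66 after RT in cells labelled IL1R1-KO). ACKR1, a decoy receptor that binds several chemokines without signalling, was at 0.854 to 1.34 scaled TPM in irradiated libraries and at most 0.1 in untreated ones. ACKR1 passed the filter through irradiated libraries alone, so its RT test is no support for a change. It was called higher after RT with the IL1R1-KO label (adjusted p = 0.0025) and in IL1RAP-KO cells (adjusted p = 0.0015), and missed the fold threshold in WT cells (adjusted p = 0.0046).

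Other CC chemokines and myeloid growth factors were likewise low, with 2 of 19 tested. KITLG, the stem cell factor that supports mast cells and progenitors, was at 3.62 to 6.07 scaled TPM in all libraries and was called in no comparison (the lowest adjusted p was 0.045, at 0.46 in IL1RAP-KO RT against WT RT). FLT3LG reached 1.48 scaled TPM and an adjusted p of 0.099 at the lowest.

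Cytokine mRNAs of this kind are unstable, and RNA-binding proteins set how long they last, while the proteases ADAM10 and ADAM17 shed membrane-bound CX3CL1 and CSF1. All 10 genes of this list were tested, with a median log2 fold change against WT RT of -0.12 with the IL1R1-KO label and -0.14 for the IL1RAP-KO line, and 0.00 over all genes. The 1 gene called in those comparisons, and named after its values were seen, was ZC3H12A, which encodes the RNase regnase-1. It was called lower in both, against 1.9% and 2.06% of all genes. It held 5.89 and 3.99 scaled TPM in libraries labelled IL1R1-KO RT, 8.09 and 3.64 for IL1RAP-KO RT and 81.8 and 68.6 in WT RT. The log2 fold changes were -3.69 and -3.55 (SE 0.29, adjusted p = 5.7e-05 and 9.9e-05), its RT response in WT was 2.19 (adjusted p = 0.00026), and its interactions were -2.72 and -2.57 (adjusted p = 0.01 and 0.02). After RT 1 of the 10 genes was called higher and 2 lower with the IL1R1-KO label. In IL1RAP-KO cells the counts were 0 and 2, and in WT cells 1 and 1. Of all genes, 8.14% and 8.16%, 8.21% and 9.19%, and 7.04% and 6.17% were called higher and lower in these comparisons. HNRNPD, or AUF1, which binds AU-rich elements, fell after RT in all 3 genotypes, with log2 fold changes of -1.93 with the IL1R1-KO label, -1.48 in IL1RAP-KO and -1.22 in WT. ZFP36L1, which promotes decay, was called higher after RT with the IL1R1-KO label (1.02) and just missed the fold threshold in IL1RAP-KO cells (0.97), against 0.20 in WT cells. ELAVL1, or HuR, was called lower after RT with the IL1R1-KO label (-1.05, adjusted p = 3.1e-05), and stood short of the fold threshold in IL1RAP-KO (-0.90, adjusted p = 8.7e-05) and WT cells (-0.66, adjusted p = 0.00079). KHSRP was called lower in IL1RAP-KO cells (-1.18, adjusted p = 9.7e-05), and stood short of that threshold with the IL1R1-KO label (-0.95, adjusted p = 0.00037) and in WT cells (-0.90, adjusted p = 0.00068).

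The IL-1 ligands and the NF-κB subunits and inhibitors were read as a further list of 15 genes, all tested. Against WT RT, 10 were called lower and 0 higher in irradiated cells labelled IL1R1-KO, and 9 and 0 in irradiated IL1RAP-KO cells. Of all genes, 1.9% and 2.06% were called lower in these comparisons. The list had medians of -1.40 and -1.37, against 0.00 over all genes. In untreated cells 3 (RELB, TNFAIP3 and TNIP1) and 2 (RELB and TNFAIP3) were called lower, against 0.118% and 0.098% of all genes, named here after their values were seen. IL1A held 48.1 and 58.2 scaled TPM in libraries labelled IL1R1-KO RT and 50.2 and 52.5 in IL1RAP-KO RT, against 182 and 184 in WT RT (log2 -1.77 and -1.81, adjusted p = 7.6e-06 and 8.7e-06). Its RT response was 0.70 with the IL1R1-KO label and 0.63 in IL1RAP-KO cells (adjusted p = 0.00035 and 0.00066, short of the fold threshold), against 1.63 in WT cells. IL1B held 8.39 and 10.3, 12.8 and 10.1, and 70.4 and 73.1 scaled TPM in the same groups (-2.82 and -2.56, adjusted p = 5.6e-06 and 1.4e-05). NFKBIA, which encodes the NF-κB inhibitor IκBα, was lower by log2 fold changes of -1.40 and -1.08. After RT 0 of the 15 genes were called lower in either KO line, whereas 3 (IL1R1-KO label) and 2 (IL1RAP-KO) were called higher. In WT cells 5 were called higher and 0 lower. Of all genes, 8.14%, 8.21% and 7.04% were called higher in these 3 comparisons, and 8.16%, 9.19% and 6.17% lower. The interaction was called lower for IL1B in both KO lines and for IL1A in IL1RAP-KO cells alone. Of all genes, 0.928% (IL1R1-KO label) and 0.66% (IL1RAP-KO) had interactions called lower. NFKBIZ was called higher in all 3 genotypes, by 1.55 with the IL1R1-KO label, 1.82 in IL1RAP-KO and 2.53 in WT (adjusted p = 4e-05, 1.6e-05 and 2.9e-06). The interactions of NFKBIZ were not called (-0.98 and -0.70, adjusted p = 0.056 and 0.17). TNFAIP3 was likewise called higher in all 3 genotypes, and neither of its interactions was called.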

How the data were processed

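RNA of 12 MCF10A libraries was depleted of ribosomal RNA and sequenced from stranded libraries. Per the submitters' notes, the authors used cutadapt 1.15 for trimming, STAR 2.5.3a for alignment against GRCh38, and HTSeq for gene counting. They deposited TPM, that is, reads per gene length set to the same total in each library; depth is unknown, so no counting interval is given.

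TPM were divided by unweighted trimmed mean of M values factors (30% of M and 5% of A values trimmed), and log2 values after adding 1 entered a limma model (version 3.58.1, R 4.3.3) of the 6 groups with a variance trend. It covered the 15303 genes that reached 1 TPM in 2 or more libraries, with Benjamini-Hochberg adjustment. The fit was tested on simulated data. P-values measure the spread between the 2 libraries of a group, pooled over the 6 groups and drawn toward the trend over all genes. The members, gene lists and tests were chosen with earlier results of these data known. Besides the 8 genes, IL1R1 and IL1RAP, the rule was to name up to 3 called genes per list with the smallest adjusted p, 1 other with the highest mean, and the 3 genes nearest in profile. Further genes of the lists were named outside this rule, after their values were seen. Positions are from GENCODE v44. Alternatives were other scalings, pseudocounts, filters and fold thresholds, no variance trend, the compared libraries alone, a replicate block and leaving out each library.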

Additional observations from a re-analysis of the deposited data

Results flagged for a closer look

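The RT response of CCL2, CCL20, CSF1 and CSF3 differed between KO and WT cells by the test of the difference itself (limma, 2 libraries a group). For cells labelled IL1R1-KO the differences in log2 fold change were -3.29 for CCL2, -2.36 for CCL20, -1.21 for CSF1 and -2.74 for CSF3. For IL1RAP-KO cells they were -3.03, -2.99, -1.30 and -2.51 in the same order. Both sets share the WT and WT RT libraries. The CSF1 values passed in 6 and 4 of 17 alternatives, and those of the other 3 genes in all 17. Groups of 2 are too small for a search for outlying libraries.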

How the results depend on the processing

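Lower CCL2, CCL20, CSF3 and CSF1 in both irradiated KO lines against WT RT kept their calls in all 13 alternatives, with log2 fold changes of -4.74 to -4.00 and -3.75 to -3.25 for CCL2 and -2.02 to -1.57 and -1.96 to -1.57 for CSF1 (IL1R1-KO label first). No call changed direction in any alternative. Counts of the 8 genes that moved by over 1.5 times were few. Between irradiated and untreated cells labelled IL1R1-KO, 2 became 1 when a TPM of 1 was asked of 6 libraries (CCL5 is then not tested) and 4 at the lower fold threshold of the study's methods; in IL1RAP-KO cells 2 became 4 at that threshold. For untreated cells labelled IL1R1-KO against WT, 1 became 0 with the compared libraries alone. Leaving out 1 library gave 0 to 1 for IL1RAP-KO against WT, 1 to 3 for IL1R1-KO RT against IL1R1-KO and 1 to 2 for IL1RAP-KO RT against IL1RAP-KO, where the lone library of a group is assumed to vary like the others. Same-numbered libraries did not deviate together over the genes tested (r of -0.06 to 0.10, median 0.01, over 15 pairs of groups). This cannot show whether they were handled together. With a replicate block the counts were unchanged, for example 4 lower in each irradiated KO line and 5 higher in WT RT.

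Scaling shifts all genes. With TPM as deposited the median of all genes was 0.23 in IL1R1-KO RT against WT RT, -0.21 in WT RT against WT and -0.28 in IL1RAP-KO RT against IL1RAP-KO. With nuclear protein-coding scaling it was 0.31, 0.10 and 0.33 in these, 0.24 in IL1RAP-KO RT against WT RT and 0.40 in IL1R1-KO RT against IL1R1-KO. Genes called higher and lower were 180 and 291 in IL1R1-KO RT against WT RT (374 and 210 as deposited, 535 and 199 with nuclear scaling), 127 and 316 in IL1RAP-KO RT against WT RT (53 and 300, 368 and 231), 1078 and 944 in WT RT against WT (718 and 1652, 1220 and 722), 1245 and 1249 in IL1R1-KO RT against IL1R1-KO (1345 and 1221, 2736 and 566), and 1256 and 1406 in IL1RAP-KO RT against IL1RAP-KO (733 and 2532, 2404 and 685). They were 2 and 9 in IL1R1-KO RT against IL1RAP-KO RT (6 and 3, 4 and 10), where the median was 0.30 as deposited. For the interactions they were 79 and 142 (134 and 79, 410 and 124) and 24 and 101 (6 and 65, 138 and 87). The cause of these shifts was not tested.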

Other observations

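Several genes too low to be tested were above 0 in some libraries. CCL7, a monocyte chemokine whose gene belongs to the same cluster as CCL2, was above 0 in WT RT replicate 1 alone, at 0.56 TPM. CCL3 was listed at 0.68 and 0.62 TPM in the libraries labelled IL1R1-KO RT, at 0.2 TPM in WT RT replicate 1 and at 0.19 TPM in the untreated library labelled IL1R1-KO replicate 2. CCL4 stood at 0.7 TPM in IL1R1-KO RT replicate 2, 0.34 in IL1RAP-KO RT replicate 2, 0.86 in WT RT replicate 2 and 0.32 in IL1RAP-KO replicate 1. IL34, the other ligand of CSF1R, was above 0 in 9 libraries, with its highest value, 0.85 TPM, in IL1RAP-KO RT replicate 2, the library with the highest share of mitochondrial transcripts. ACKR2, a scavenger of CC chemokines, was above 0 in all 12 libraries, at 0.34 to 0.99 TPM in irradiated and 0.04 to 0.34 TPM in untreated ones. None of these was tested.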
